A study of Mus musculus with 53 samples.

Results

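The genes described here encode subunits, tissue isoforms and assembly factors of 4 complexes of mitochondrial oxidative phosphorylation in mouse lung. They were chosen by name: every gene whose symbol in the array's probe annotation begins with Nduf (complex I), Uqcr (complex III), Cox4 to Cox8 (complex IV) or Atp5 (complex V). This gave 86 of the 18193 genes that the array represents with a probe set of 1 symbol, made up of 44 of complex I, 8 of complex III, 17 of complex IV and 17 of complex V. All 86 were among the 15030 genes tested. Each gene was read from its brightest probe set, and 83 of the 86 were called present on all 53 arrays. The others were Cox7b2, present on 9 arrays, Cox8c, present on 21, and Ndufb4, present on 37. Ndufa4 is counted under complex I by its symbol, although its protein is known as a subunit of complex IV.

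The samples were small lung lobes of female C57BL/6 mice, whose age label holds only the time in the study, on 53 arrays in 9 groups. Mice breathed 4% mainstream cigarette smoke through the nose, or air as a sham (forced air), in sessions of 2 hours on 5 days of the week. Such exposure lasted 2, 12 or 24 weeks, with smoke and with forced air. Cessation groups had 12 weeks of smoke and then 12 weeks without it, labelled as moved to forced air or to room air, and a further group was untreated. The protocol names only sham exposure after smoke, for cessation as a whole, so how the room air group was handled is not settled, and both groups are used as labelled. The groups were smoke for 2 weeks (6 arrays), forced air for 2 weeks (6), smoke for 12 weeks (5), forced air for 12 weeks (6), smoke for 24 weeks (6), smoke to forced air at 24 weeks (6), smoke to room air at 24 weeks (6), forced air for 24 weeks (6) and untreated (6). The labels give no allele and no drug, and they do not number the mice, so p-values measure the spread between these samples. One untreated group, taken at time 0, served all durations, so duration and age of the mice cannot be told apart in comparisons with it.

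Oxidative phosphorylation couples the oxidation of nutrients to the making of ATP in the inner mitochondrial membrane. Complex I takes electrons from NADH, complex III passes them on to cytochrome c, and complex IV hands them to oxygen. All 3 pump protons, and complex V, the ATP synthase, lets the protons flow back through its Fo part to drive the F1 part that makes ATP. Several subunits of complex IV exist as pairs of isoforms, of which one is made in most tissues and the other in heart and skeletal muscle (Cox6a2, Cox7a1, Cox8b), in lung and under low oxygen (Cox4i2) or in testis (Cox6b2, Cox7b2, Cox8c).

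The expression of many of these genes is known to be driven by the nuclear factors NRF1, GABPA, YY1 and ERR alpha, and that of muscle isoforms by MEF2. Promoters of members that the results turn on are shown here, first of muscle isoforms and broadly expressed partners of complex IV. Then follow 3 members of other complexes that changed after 2 weeks. Cox6a2, the muscle partner of Cox6a1, had no promoter entry and is not shown. Each stretch holds the 250 bases before the annotated start, written 5′ to 3′ on the strand of the gene, from RefSeq on GRCm38.p6, and capitals mark a match to one of the motifs searched. They lie at chr7:140900447-140900696 (minus strand, Cox8b), chr19:7217617-7217866 (minus strand, Cox8a), chr7:30183921-30184170 (plus strand, Cox7a1), chr9:79759854-79760103 (minus strand, Cox7a2), chr5:115348959-115349208 (minus strand, Cox6a1), chr2:174464102-174464351 (minus strand, Atp5e), chr4:24897833-24898082 (plus strand, Ndufaf4), chr4:116075071-116075320 (minus strand, Uqcrh).
Cox8b: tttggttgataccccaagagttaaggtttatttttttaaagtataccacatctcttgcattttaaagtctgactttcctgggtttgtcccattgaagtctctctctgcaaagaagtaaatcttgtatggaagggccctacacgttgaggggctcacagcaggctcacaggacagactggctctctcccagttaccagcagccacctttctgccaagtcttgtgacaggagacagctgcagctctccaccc
Cox8a: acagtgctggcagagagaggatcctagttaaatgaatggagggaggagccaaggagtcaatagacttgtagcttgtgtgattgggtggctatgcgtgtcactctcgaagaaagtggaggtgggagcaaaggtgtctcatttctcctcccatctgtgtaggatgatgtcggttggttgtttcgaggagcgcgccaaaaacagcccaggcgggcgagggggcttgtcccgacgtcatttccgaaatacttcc
Cox7a1: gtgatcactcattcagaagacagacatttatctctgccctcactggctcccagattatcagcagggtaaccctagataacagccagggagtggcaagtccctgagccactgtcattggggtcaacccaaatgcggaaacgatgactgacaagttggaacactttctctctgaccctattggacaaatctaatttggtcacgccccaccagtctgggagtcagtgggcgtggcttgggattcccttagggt
Cox7a2: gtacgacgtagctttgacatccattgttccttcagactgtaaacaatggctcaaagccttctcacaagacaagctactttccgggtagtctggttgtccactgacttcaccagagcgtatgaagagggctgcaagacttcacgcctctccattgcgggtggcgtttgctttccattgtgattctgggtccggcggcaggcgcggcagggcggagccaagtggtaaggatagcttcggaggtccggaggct
Cox6a1: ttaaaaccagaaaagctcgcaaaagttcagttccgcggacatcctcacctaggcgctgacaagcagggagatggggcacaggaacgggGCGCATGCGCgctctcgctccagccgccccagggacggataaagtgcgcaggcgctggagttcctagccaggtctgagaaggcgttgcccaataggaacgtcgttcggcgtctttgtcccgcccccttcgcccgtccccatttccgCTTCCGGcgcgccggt
Atp5e: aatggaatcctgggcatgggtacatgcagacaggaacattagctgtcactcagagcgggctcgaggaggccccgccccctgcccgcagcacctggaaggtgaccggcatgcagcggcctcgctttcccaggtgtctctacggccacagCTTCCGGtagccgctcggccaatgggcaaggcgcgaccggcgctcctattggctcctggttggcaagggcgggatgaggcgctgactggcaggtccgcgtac
Ndufaf4: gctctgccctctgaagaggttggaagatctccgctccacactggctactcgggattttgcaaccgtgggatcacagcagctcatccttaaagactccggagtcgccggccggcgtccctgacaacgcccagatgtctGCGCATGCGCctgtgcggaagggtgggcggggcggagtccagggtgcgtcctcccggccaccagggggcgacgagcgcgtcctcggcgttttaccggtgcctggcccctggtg
Uqcrh: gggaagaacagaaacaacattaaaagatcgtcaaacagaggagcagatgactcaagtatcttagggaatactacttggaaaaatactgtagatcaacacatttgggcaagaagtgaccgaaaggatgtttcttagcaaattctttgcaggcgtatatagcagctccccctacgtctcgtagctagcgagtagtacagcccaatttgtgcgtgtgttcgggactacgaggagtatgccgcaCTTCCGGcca

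Motifs were searched on both strands, with no mismatch, from 250 bases before to 50 after the start, in the 71 of 86 members that had an entry. The NRF1 palindrome (GCGCA followed directly by TGCGC) was found in 8.45% of these members and in 2.05% of all tested genes with an entry. CCGGAAG (GABPA) was found in 23.9% against 17.3%, and AAGATGGC (YY1) in 14.1% against 4.55%. TCAAGGTCA (ERR alpha) was found in 1.41% against 0.366%, and CTA and TAG with any 4 bases between them (MEF2) in 2.82% against 3.83%. In the promoters printed above, Cox6a1 held the NRF1 letters at -162 to -153 and the GABPA letters at -16 to -10, and Ndufaf4 the NRF1 letters at -113 to -104. Atp5e held the GABPA letters at -102 to -96, and Uqcrh at -10 to -4. Cox8a held the GABPA letters 2 times in the stretch searched, reaching past the start and so not in the bases printed. The muscle isoforms Cox8b and Cox7a1 had no match. They had 1 and 4 CpG dinucleotides in these 250 bases, while Cox8a had 11, Cox7a2 had 14 and Cox6a1 had 26.

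Array signals are MAS5 values on a linear scale, and the mean signal of a member over all arrays ran from 2.06 for Cox8c to 2330, with a median of 658 beside 143.5 for all tested genes. Log2 changes are of the signal with 16 added and lie under the change of the signal itself where signals are low. A member was called at a limma adjusted p under 0.05, and it is said to rise or fall only then. Between 67.5% and 76.2% of probe sets were called present on an array. The Gapdh 3′/5′ signal ratio, a measure of RNA integrity that is high when the 5′ part of transcripts is poorly represented, ran from 1.40 to 2.42. At 12 weeks it ran from 1.48 to 1.54 with smoke and from 1.58 to 2.42 with forced air. Its medians in the other groups were 1.62 with smoke and 1.85 with forced air at 2 weeks, 1.51 with smoke and 1.505 with forced air at 24 weeks, 1.49 after smoke to forced air, 1.498 after smoke to room air and 1.57 in untreated lungs. The 8 arrays with the highest ratios were 4 of forced air at 2 weeks, 3 of forced air at 12 weeks and 1 untreated array (replicate 2, ratio 1.97). Of the 24-week arrays, forced air replicate 4 carried fat markers (Adipoq 1113), and smoke to forced air replicate 6 had a summed signal of 14 cardiac muscle markers of 708, the lowest of its group. All 6 alveolar type 1 and all 7 alveolar type 2 markers tested were present on most arrays of every group. The tissue is bulk lung, in which fewer cells of a type and less RNA per cell cannot be told apart.

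Levels of the members were highest in the forced air group of 2 weeks. Of the 86 members, 70 had their highest group mean there, as had 20.1% of all tested genes: 38 of 44 in complex I, 6 of 8 in complex III, 9 of 17 in complex IV and 17 of 17 in complex V. The lowest group mean was that of forced air for 24 weeks in 45 members, against 17.5% of all genes, and that of smoke to forced air in 21, against 4.32%. The median member level of an array, relative to the untreated mean, was 0.07 ± 0.08 with smoke and 0.22 ± 0.06 with forced air at 2 weeks (log2, mean ± SD). It was 0.02 ± 0.05 with smoke and 0.09 ± 0.10 with forced air at 12 weeks, and -0.08 ± 0.06 with smoke and -0.14 ± 0.04 with forced air at 24 weeks. After smoke to forced air it was -0.13 ± 0.05, after smoke to room air -0.10 ± 0.03, and in untreated lungs 0.00 ± 0.12. Neighbours in this order at 24 weeks differed by less than their SDs. Forced air at 2 weeks had the highest mean in each of the 4 complexes, and untreated replicate 2 lay above the other untreated arrays in each.

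**Figure D1:**
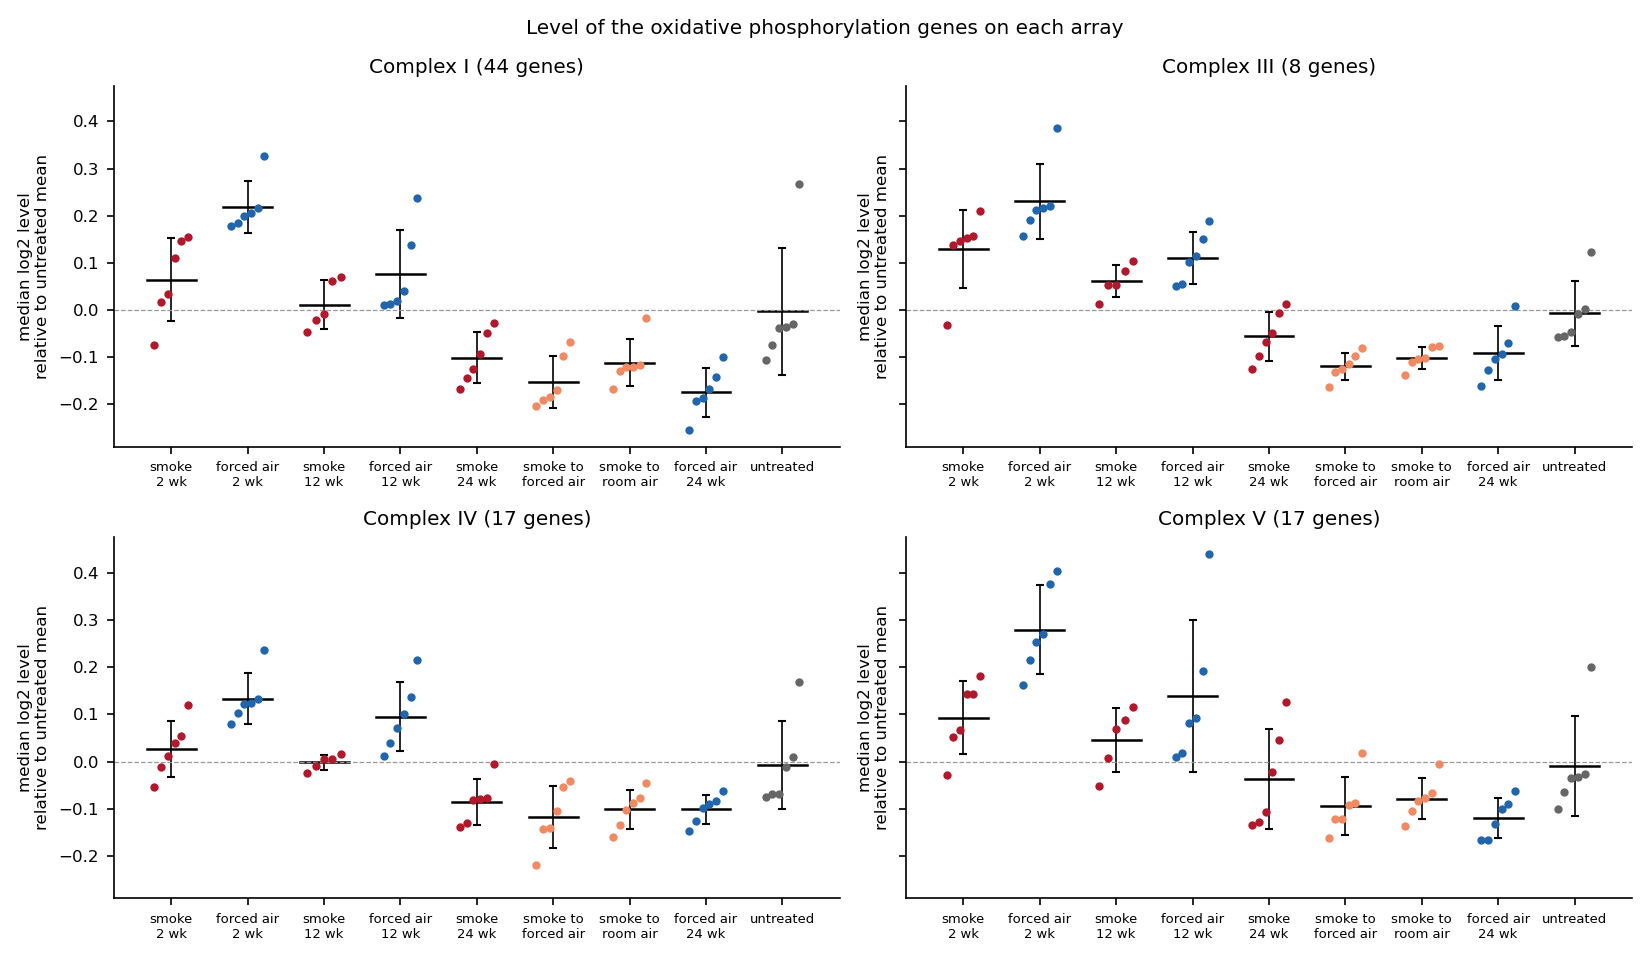
Median log2 level of the members of each complex on each array (points), relative to the untreated mean, by group (horizontal line and bars: mean ± SD). Forced air at 2 weeks is the highest group in all 4 panels, the 24-week groups lie below 0 on average, and 1 untreated array stands above the others.

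The level moved with the Gapdh 3′/5′ ratio. Over the 53 arrays the median level of the 86 genes had a Pearson r of 0.813 and a Spearman rho of 0.77 with the ratio, and r was 0.791 without the 2 arrays farthest from the median ratio. After the group means were taken out, r was 0.76 and rho 0.708 (0.617 without 2 arrays). The relation differed between sets in size: within groups r was 0.819 for complex V, 0.687 for complex I, 0.625 for complex IV and 0.283 for complex III. Without the 2 farthest arrays these were 0.696, 0.518, 0.444 and 0.0495 in the same order. It was -0.0475 for the 3 muscle isoforms of complex IV and -0.157 for the 8 assembly factors of complex I. These are descriptions, since the points share the arrays and their scaling, and Gapdh is itself a gene of energy metabolism. The part of the ratio in the group differences was not tested beyond the fits with both ratios as covariates and without the 8 arrays of high ratio, whose counts are given with each comparison in which they differ.

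**Figure D2:**
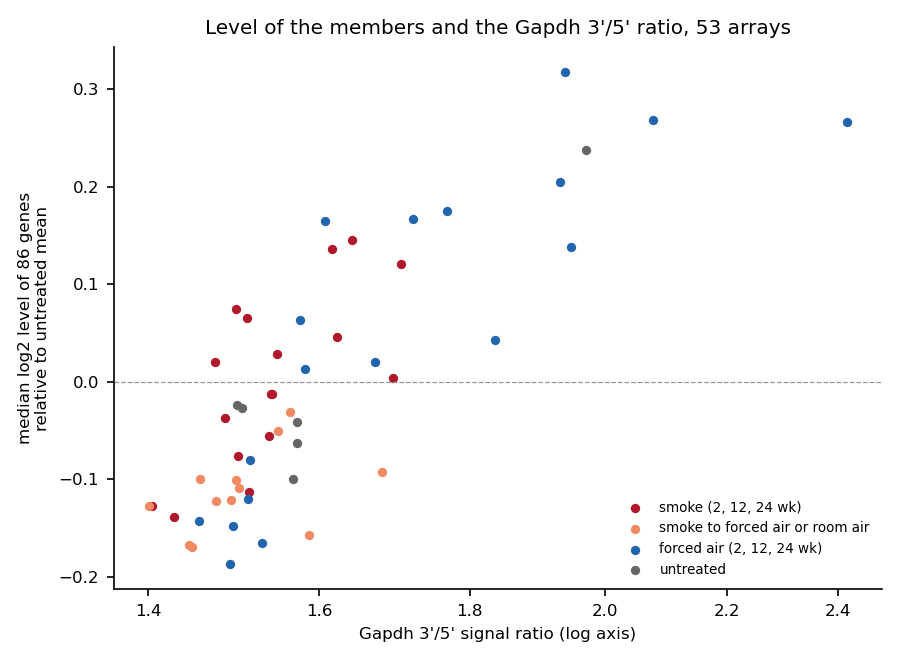
Median log2 level of the 86 genes on each of 53 arrays, relative to the untreated mean, against the Gapdh 3′/5′ signal ratio (log axis), coloured by exposure. Arrays of high ratio have high levels; the array with the ratio of 2.42 is a forced air array of 12 weeks with a level of 0.27.

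Forced air for 2 weeks was compared with untreated lungs taken at time 0, so sham handling and time in the study cannot be told apart. The median Gapdh ratio differed too, at 1.85 and 1.57. In this comparison 55 members rose and 1 fell, beside 10.9% of all tested genes higher and 12.4% lower. The median change was 0.24 with 82 of 86 members positive. By complex, 28 of 44 rose in complex I (median 0.23), 5 of 8 in III (0.22), 7 of 17 in IV (0.12) and 15 of 17 in V (0.28). In complex V all 5 F1 subunits and 10 of 12 Fo and stalk subunits rose. In complex IV 5 of 9 broadly expressed subunits rose, against 1 of 7 tissue isoforms. These 7 include Cox7b2 and Cox8c, whose mean signals of 3.52 and 2.06 were near background, so a change in them could hardly be seen.

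The largest rise was that of Atp5g1, which encodes the c subunit of the rotating Fo ring. Its signals were 489, 570 and 606 (lowest, median, highest) in forced air lungs and 373, 416 and 429 in untreated lungs. The groups did not overlap, and the fold was 1.35 (log2 0.44, SE 0.07, adjusted p = 7.4e-06). Atp5g3, another gene of the c subunit, rose by 0.24, and Atp5a1 and Atp5b, the alpha and catalytic beta subunits of F1, rose by 0.19 and 0.25. Atp5mpl, a small Fo-associated protein, rose by 0.40.

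In complex I the accessory subunits Ndufb9 and Ndufb5 and the core flavoprotein subunit Ndufv2 rose by 0.39, 0.37 and 0.37. Ndufv2 signals were 673, 681 and 794 in forced air lungs and 473, 507 and 765 in untreated lungs, so the groups overlapped in 1 untreated array. Ndufb8 rose by 0.21 and Ndufa4 by 0.25 (adjusted p = 7.0e-05). Among core subunits Ndufs1 (0.13, adjusted p = 0.19) and Ndufv1 (0.19, adjusted p = 0.10) were not called, nor was the assembly factor Ndufaf1 (0.05). The exception in direction was Ndufa4l2, the paralogue of Ndufa4 that is induced under low oxygen. Its signals were 31.8, 42.04 and 47.6 in forced air lungs and 45.3, 54.7 and 64.2 in untreated lungs. It fell with a fold of 0.80 (log2 -0.32, adjusted p = 0.012), and 5 of 6 forced air arrays lay below all untreated ones.

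In complex III the core subunit Uqcrc1 and the Rieske iron-sulphur protein Uqcrfs1 rose by 0.21 and 0.22, while Uqcrc2 was not called (0.15, adjusted p = 0.092). In complex IV the broadly expressed Cox8a, Cox7a2, Cox6a1 and Cox4i1 rose by 0.36, 0.28, 0.26 and 0.14, as did Cox7a2l (0.17), which helps complexes III and IV associate. Cox5a was not called (0.12). Of their tissue isoforms Cox7a1 rose (0.36, adjusted p = 0.035), while Cox6a2 (0.24, adjusted p = 0.17), Cox4i2 (0.08) and Cox8b (0.06) were not called.

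With both 3′/5′ ratios as covariates 21 members were higher and 1 lower. Without the 8 arrays of high ratio, which include 4 of 6 forced air arrays and 1 untreated array, 27 were higher and 0 lower. Atp5g1 was called in both, at 0.37 and 0.52, while Ndufa4l2 was at -0.24 (adjusted p = 0.31) without those arrays. The Gapdh ratio ran from 1.61 to 2.08 with forced air, and only untreated replicate 2 (1.97) lay within that range. The forced air arrays kept without the high-ratio arrays (1.61 and 1.72) still lay above all untreated arrays kept. Neither fit can therefore tell forced air and the ratio well apart, also not for Atp5g1. Of the 30 called members with several probe sets, 12 were called by every one, and Atp5c1 had a second probe set that was called with the opposite sign. Markers of other cells moved too: 5 of 6 alveolar type 1 markers and 3 of 8 alveolar macrophage markers were higher, and 2 of 3 B cell markers lower. Their part in the result was not tested.

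**Figure D3:**
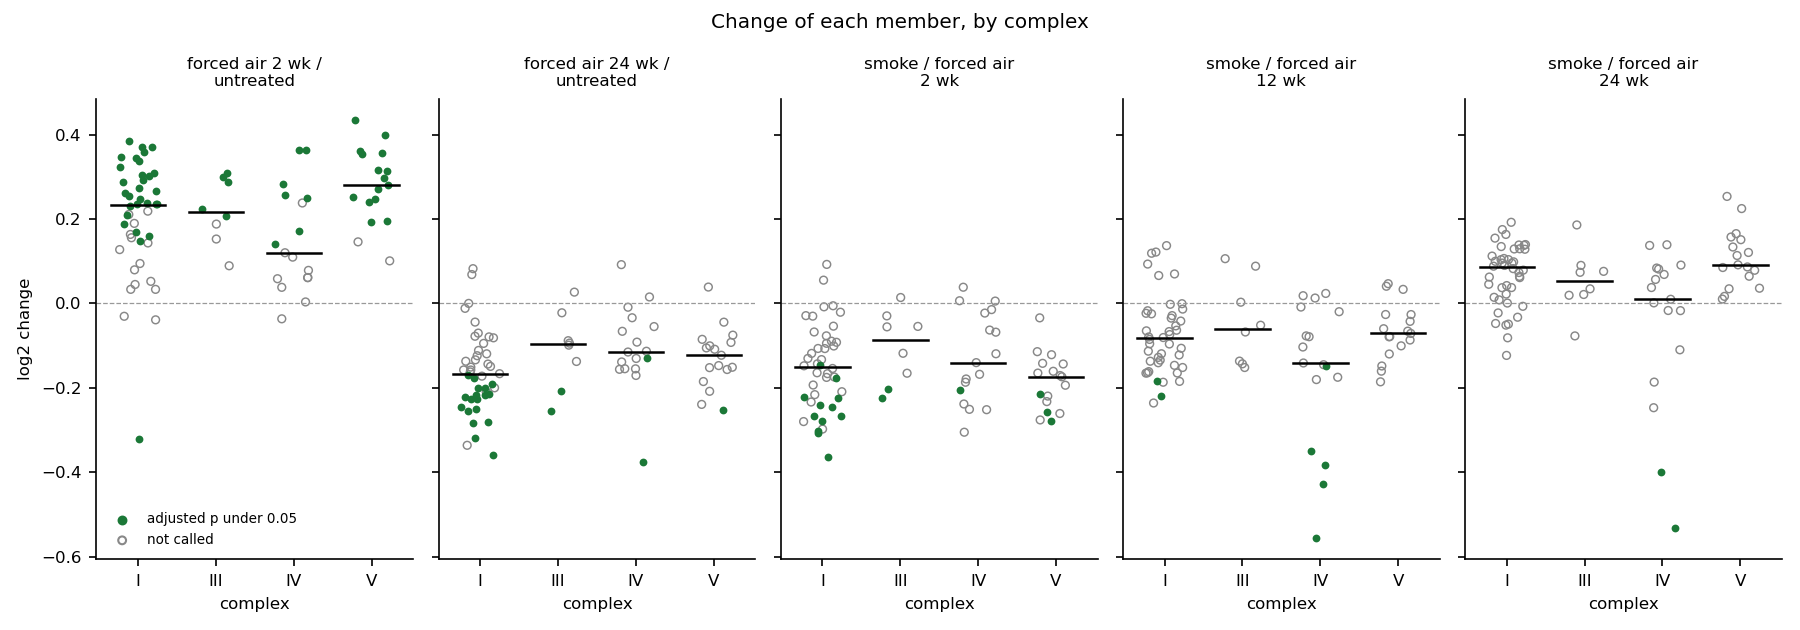
Log2 change of each member by complex in 5 comparisons (points; filled: limma adjusted p under 0.05, open: not called; lines: medians). Most members rise in forced air at 2 weeks against untreated, and in the 12 and 24 week smoke comparisons the largest falls are in complex IV.

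After 12 weeks of forced air 4 members were higher than in untreated lungs and none was lower, beside 2.2% and 3.55% of all genes, with a median change of 0.10. They were Uqcrfs1 (0.23, adjusted p = 0.016), Ndufb9 (0.22), Cox7a2l (0.17) and Ndufa4 (0.14). The Gapdh ratio of every forced air array lay above that of all untreated arrays save replicate 2. Forced air and the ratio can therefore hardly be told apart here, also not with the ratios as covariates or without the high-ratio arrays. Without the high-ratio arrays, which include 3 of the 6 forced air arrays, 0 were called, and with the ratios as covariates 1 was. Without forced air replicate 6 it was 1, and without untreated replicate 2 it was 10. At an unadjusted p under 0.05, 22 members were higher and 0 lower. Of 2 called members with several probe sets, 0 were called by every one.

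After 24 weeks of forced air the direction was the other one: 23 members fell against untreated lungs and none rose, beside 9.4% and 4.7% of all genes, with a median of -0.15 and 79 of 86 members negative. Complex I held 18 of the 23 (median -0.17), of which 13 were accessory subunits, 3 core subunits and 2 assembly factors. Complexes III, IV and V had 2, 2 and 1. Of 12 called members with several probe sets, 3 were called by every one. The fall was largest for Cox4i2 (-0.38, SE 0.10, adjusted p = 0.012), the isoform of lung, followed by Ndufa5 (-0.36), Ndufv1 (-0.32), Ndufv2 (-0.28), Ndufv3 (-0.28) and the complex III subunit Uqcrq (-0.26). Ndufv1, Ndufv2 and Ndufv3 form the flavoprotein part of complex I that receives electrons from NADH.

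Cox4i2 signals were 91.7, 109.6 and 133.6 in forced air lungs of 24 weeks and 126, 147 and 189 in untreated lungs, and the groups overlapped. Ndufa5 signals were 616, 629 and 702 in forced air lungs and 718, 748 and 1483 in untreated lungs, with no overlap. The value of 1483 belongs to untreated replicate 2, whose Gapdh ratio was 1.97. Without that array 3 members were lower, without all high-ratio arrays 9 and with the ratios as covariates 11. Ndufa5 was at -0.19 (adjusted p = 0.024) without the high-ratio arrays.

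Smoke for 2 weeks against forced air for 2 weeks asks what smoke adds to the exposure procedure. The Gapdh ratio ran from 1.54 to 1.71 with smoke and from 1.61 to 2.08 with forced air. Only forced air replicate 2 (1.61) lay within the range of the smoke arrays. Smoke and the ratio can therefore hardly be told apart in this comparison. Of the members 18 fell and none rose, beside 3.7% of all genes lower and 5.39% higher, and the median was -0.16 with 80 of 86 members negative (all genes 0.00). The falls lay in complex I in 12 of 44 (median -0.15), in III in 2 of 8 (-0.09), in IV in 1 of 17 (-0.14) and in V in 3 of 17 (-0.17). Within complex I they were 3 of 6 core subunits, 7 of 28 accessory subunits and 2 of 8 assembly factors. These arrays of forced air are the same that served the comparison with untreated lungs. Of 12 called members with several probe sets, 2 were called by every one.

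The largest fall was that of Ndufaf3, an assembly factor that acts early in building complex I. Its signals were 115.8, 154.4 and 209.9 in smoke-exposed lungs and 182, 204 and 248 in forced air lungs, and 5 of 6 smoke arrays lay below all forced air ones. The fold was 0.78 (log2 -0.36, SE 0.10, adjusted p = 0.014). Its partner Ndufaf4 fell by 0.31 and the accessory subunits Ndufa5 and Ndufa2 by 0.30 and 0.27. The core subunits Ndufv2 and Ndufv1 fell by 0.28 and 0.27, while Ndufs1 (-0.11), Ndufb8 (-0.10), Ndufa4 (-0.09), Ndufa4l2 (-0.08) and Ndufaf1 (-0.05) were not called.

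Atp5e, the epsilon subunit of F1, had signals of 754, 942 and 995 in smoke-exposed lungs and 987, 1116 and 1177 in forced air lungs. It fell by 0.28 (adjusted p = 0.036), and the groups overlapped in 1 array of smoke. Atp5b fell by 0.21, and Atp5a1 (-0.17, adjusted p = 0.066), Atp5g1 (-0.16) and Atp5g3 (-0.14) were not called. In complex III Uqcrc2 fell by 0.20 with no overlap of the groups. Its call was lost in 10 of 12 fits that each left out 1 array. The call was also lost with quantile normalization, without the detection filter, with the title number as a covariate and over all kept probe sets, among others. Uqcrc1 (-0.03) and Uqcrfs1 (0.01) were not called. In complex IV Cox7a2 (-0.25, adjusted p = 0.053), Cox6a1 (-0.24, adjusted p = 0.064), Cox8a (-0.19) and Cox4i2 (-0.30, adjusted p = 0.055) were not called, nor were Cox4i1 (-0.07) and Cox5a (0.04). Cox6a2, Cox7a1, Cox8b and Cox7a2l were at -0.25, -0.14, -0.18 and -0.12 and were not called.

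With both 3′/5′ ratios as covariates 1 member was lower, which was Ndufaf3 at -0.35 (adjusted p = 0.048). Without the high-ratio arrays, which include 4 of the 6 forced air arrays, 2 were. The part of the smaller number of arrays in that count was not tested. Leaving out smoke replicate 2 left 2 members lower, and leaving out smoke replicate 6 gave 23. Over 12 fits that each left out 1 array, Ndufv1 lost its call in 8, and Ndufa5 and Ndufaf4 in 7 each. Atp5e and Atp5b lost theirs in 6 each, Ndufv2 in 4 and Ndufaf3 in 1, while Ndufa2 kept its call in all. Beside these genes 4 of 8 alveolar macrophage and 4 of 7 monocyte and interstitial macrophage markers were higher, and 3 of 6 alveolar type 1 and 3 of 6 endothelial markers lower. Their part in the result was not tested.

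After 12 weeks of smoke the falls lay mainly in complex IV. Against forced air for 12 weeks 7 members were lower and none higher, beside 10.5% and 12.5% of all genes, with a median of -0.08. Of the 7 tissue isoforms of complex IV 4 fell, against 0 of 9 broadly expressed subunits, 2 of 44 members of complex I and none of complexes III and V. At 2 weeks all 7 had negative changes that were not called, and the test of the difference between 12 and 2 weeks called none of them (adjusted p between 0.36 and 0.92). The others called were Ndufb9 (-0.22), Ndufa8 (-0.18) and Cox7a2l (-0.15). Of 3 called members with several probe sets, 1 was called by every one.

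Cox8b, the muscle isoform of subunit 8, fell most. Its signals were 23.9, 31.7, 34.8, 36.8 and 38.8 in smoke-exposed lungs, against a lowest of 47.8, a median of 54.2 and a highest of 66.7 in forced air lungs. The fold was 0.68 (log2 -0.56, SE 0.15, adjusted p = 0.0055), and the groups did not overlap. Its broadly expressed partner Cox8a was at -0.08 (95% interval -0.26 to 0.10, adjusted p = 0.60).

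Cox7a1, the muscle isoform of subunit 7a, had signals of 36.2, 47.5, 47.9, 57.4 and 63.0 in smoke-exposed lungs, against 64.5, 73.3 and 78.9 in forced air lungs. It fell with a fold of 0.74 (log2 -0.43, SE 0.14, adjusted p = 0.016), again with no overlap. Its partner Cox7a2 was at -0.17 (95% interval -0.35 to 0.00, adjusted p = 0.16). Cox6a2, the muscle isoform of subunit 6a, had signals of 179, 182, 203, 223 and 228 with smoke, against 242, 266 and 298 with forced air. It fell with a fold of 0.77 (log2 -0.38, adjusted p = 0.030), and its partner Cox6a1 was at -0.10 (95% interval -0.28 to 0.07). The difference between the isoforms of a pair was not tested.

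Cox4i2, the lung isoform of subunit 4, had signals of 98.3, 99.5, 104.7, 127.4 and 136.5 with smoke, against 133, 147 and 176 with forced air, and 4 of 5 smoke arrays lay below all forced air ones. It fell with a fold of 0.78 (log2 -0.35, adjusted p = 0.015), and Cox4i1 was at -0.01 (95% interval -0.09 to 0.08). Without the high-ratio arrays, which include 3 of the 6 forced air arrays, 1 member was higher and 2 lower in all. Cox8b, Cox6a2 and Cox4i2 were then at -0.49, -0.37 and -0.35 with adjusted p of 0.064, 0.097 and 0.052. At 12 weeks the Gapdh ratios did not overlap (1.48 to 1.54 with smoke, 1.58 to 2.42 with forced air). Smoke and the ratio therefore cannot be told apart here, also not in the fit with the ratios as covariates. In that fit 6 members were higher and 2 lower, and Cox8b was at -0.49 (adjusted p = 0.046). The uncalled Cox8a, Cox7a2 and Cox6a1 were at 0.15, 0.095 and 0.16. Cox6a2 was at -0.42 (adjusted p = 0.051) and Cox4i2 at -0.29 (adjusted p = 0.11) in that fit. Without smoke replicate 5 Cox7a1 was at -0.34 (adjusted p = 0.084) and Cox4i2 at -0.31 (adjusted p = 0.056). Over 11 fits that each left out 1 array, Cox8b kept its call in all, while Ndufa8 lost its call in 8. Cox6a2 and Cox7a2l lost theirs in 4 each, Ndufb9 in 3, and Cox7a1 and Cox4i2 in 1 each. Ndufa8 was also not called with a pseudocount of 1, without the detection filter or with only the compared groups fitted. The count of members lower was 4 without forced air replicate 1 and 12 without forced air replicate 4.

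**Figure D4:**
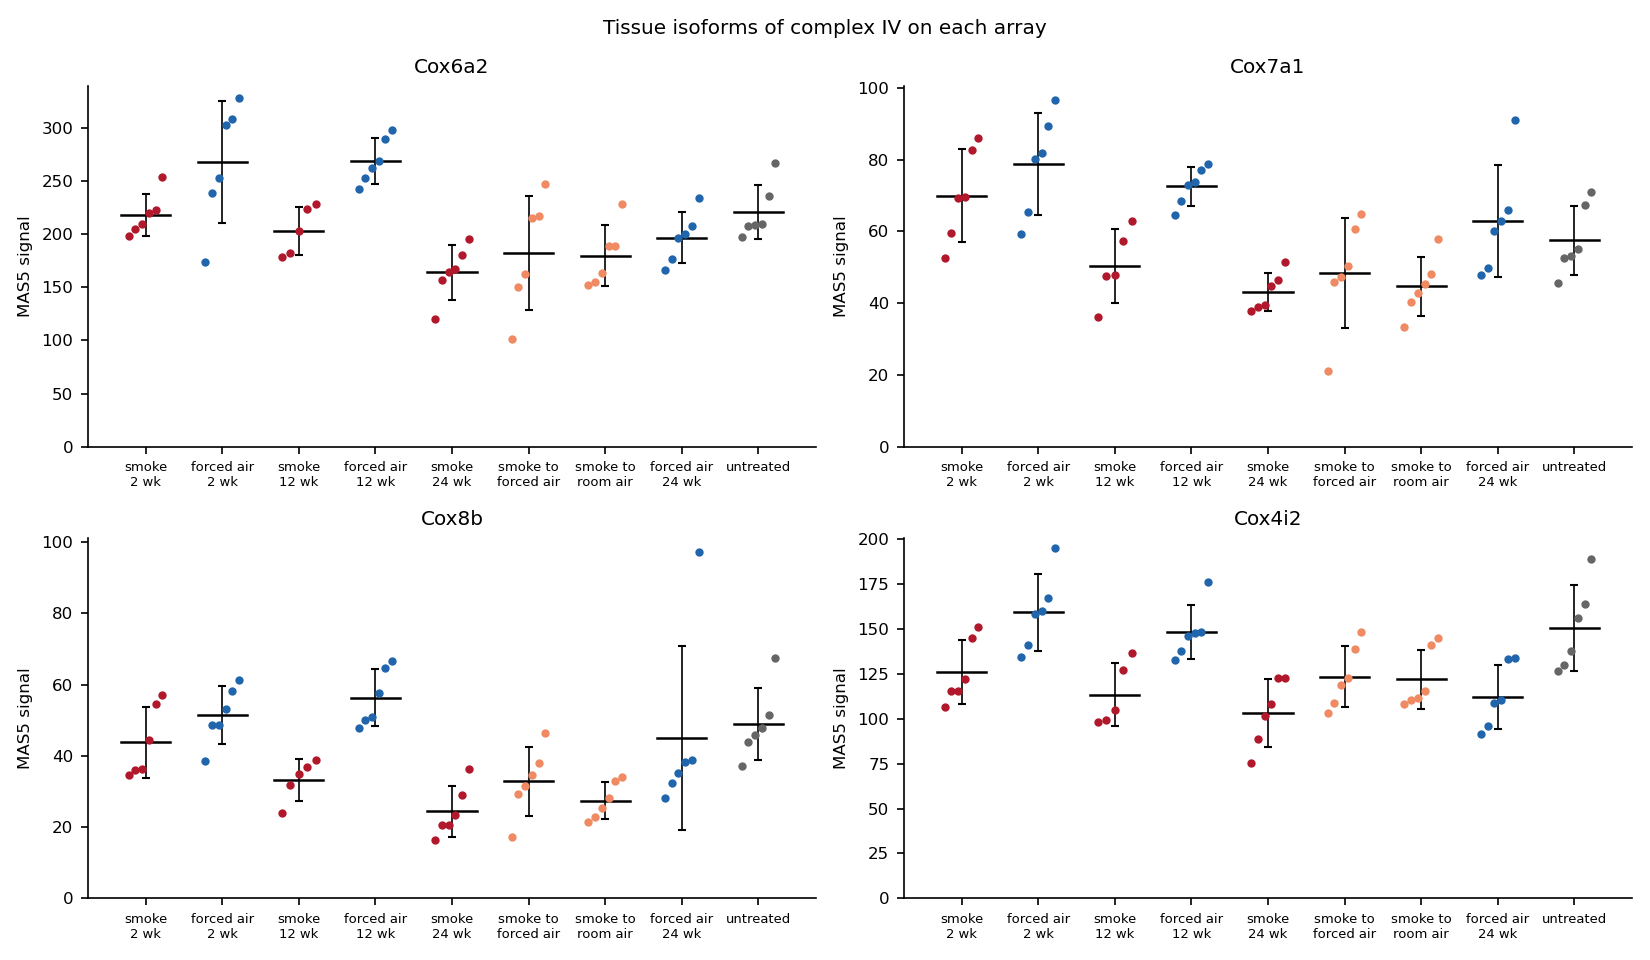
MAS5 signal of 4 tissue isoforms of complex IV on each array (points), by group (line and bars: mean ± SD). At 12 weeks the smoke arrays of Cox8b, Cox7a1 and Cox6a2 lie below all forced air arrays, and 1 forced air array of 24 weeks has a Cox8b signal of 97.2.

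Markers of cardiac muscle, which lines the pulmonary veins of mice, moved with these isoforms. Of 14 cardiac markers 6 fell at 12 weeks of smoke (median -0.66), beside 10.5% of all genes lower. The summed signal of the 14 was 2500, 3586 and 4510 (lowest, median, highest) in smoke-exposed lungs and 3878, 5712 and 6991 in forced air lungs. At 24 weeks 1 of 14 fell (median -0.44), a share near the 6.67% of all genes lower. The sums were then 1799, 3059 and 3825 with smoke and 2266, 4096 and 4968 with forced air. All 6 endothelial and 5 of 6 smooth muscle and pericyte markers fell at 12 weeks as well.

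Across the 53 arrays, as deviations from group means on the log2 scale, Cox6a2 followed the summed cardiac signal with Pearson r = 0.793 (rho 0.754, r 0.692 without the 2 farthest arrays). The permutation p of r was 1e-05, the smallest that 100000 permutations can give, and 8e-05 after adjustment over 8 isoforms. Cox7a1 had r = 0.686 (rho 0.654, adjusted permutation p = 0.00012, r 0.502 without 2 arrays). Cox8b had r = 0.337 (rho 0.472, adjusted permutation p 0.085 for r and 0.0020 for rho), and r was 0.116 without 2 arrays, so its linear r rests on those arrays. Within single groups the r of Cox8b was positive in 7 of 9, and it was -0.802 with forced air at 24 weeks and -0.246 in untreated lungs. That of Cox7a1 was positive in 8 of 9 groups and -0.502 with forced air at 24 weeks, and that of Cox6a2 was positive in 9 of 9. Of the broadly expressed partners, Cox6a1 had r = 0.210 and rho = 0.359 (adjusted permutation p 0.085 for r and 0.016 for rho), and Cox7a2 had r = 0.216 and rho = 0.378 (0.085 and 0.012). Cox8a, Cox4i2 and Cox4i1 had r between 0.173 and 0.299 and rho between 0.134 and 0.299, and neither measure had an adjusted p under 0.05 in these 3. The part of cardiac muscle in the falls of the isoforms was not tested.

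After 24 weeks of smoke 2 members were lower and none higher than with forced air, beside 6.67% and 11.1% of all genes, with a median of 0.08 and 70 of 86 members positive. The 2 were Cox8b and Cox7a1, both lower at 12 weeks too, on other arrays. Cox8b signals were 16.4, 22.1 and 36.4 with smoke and 28.2, 36.8 and 97.2 with forced air (log2 -0.53, SE 0.15, adjusted p = 0.0066). Cox7a1 signals were 37.9, 42.1 and 51.5 with smoke and 47.8, 61.5 and 91.03 with forced air (log2 -0.40, SE 0.13, adjusted p = 0.023). Both pairs of groups overlapped. The highest forced air value of Cox8b came from replicate 4, which had an Adipoq signal of 1113 and a Ucp1 signal of 175, markers of white and brown fat. Without it Cox8b was at -0.34 (adjusted p = 0.052) and Cox7a1 at -0.31 (adjusted p = 0.099). Cox8b was also not called with only the compared groups fitted (adjusted p = 0.066), nor Cox7a1 without smoke replicate 1 (adjusted p = 0.052). Cox6a2 (-0.25, adjusted p = 0.18), Cox4i2 (-0.11), Cox8a (0.14) and Ndufv3 (0.19, adjusted p = 0.057) were not called. With the ratios as covariates 8 members were higher and 2 lower, without the high-ratio arrays 5 were higher and 2 lower, and without smoke replicate 5 there were 4 higher. Without forced air replicate 4 the member lower was Cox6b2 (-0.22, adjusted p = 0.039, against -0.19 and 0.081 with it) and the member higher was Uqcrq (0.25, adjusted p = 0.040), both named after their values were seen.

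The smoke effect at 24 weeks differed from that at 2 weeks in 18 members, all in the positive direction, beside 3.87% of all genes positive and 2.57% negative, and the median difference was 0.22. They were 8 members of complex I, 1 of III, 1 of IV and 8 of V. Of 11 called members with several probe sets, 4 were called by every one. The difference was 0.53 for Atp5mpl (SE 0.16, adjusted p = 0.039), 0.44 for Atp5e, 0.44 for Ndufa2 (adjusted p = 0.0044), 0.41 for Ndufv2, 0.40 for Ndufv3 and 0.38 for Ndufb5. Ndufa2 signals were 566, 604 and 694 with smoke and 527, 542 and 565 with forced air at 24 weeks. At 2 weeks they were 620, 694 and 757 with smoke and 750, 820 and 1006 with forced air. The forced air groups of 24 and 2 weeks lay farther apart than the smoke groups did. With the ratios as covariates 1 member was called, which was Ndufa2 at 0.32 (adjusted p = 0.027). Without the high-ratio arrays, which include 4 of the 6 forced air arrays of 2 weeks, 4 were. Without smoke replicate 2 of the 2-week group 3 were called, and without smoke replicate 5 of the 24-week group 29.

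**Figure D5:**
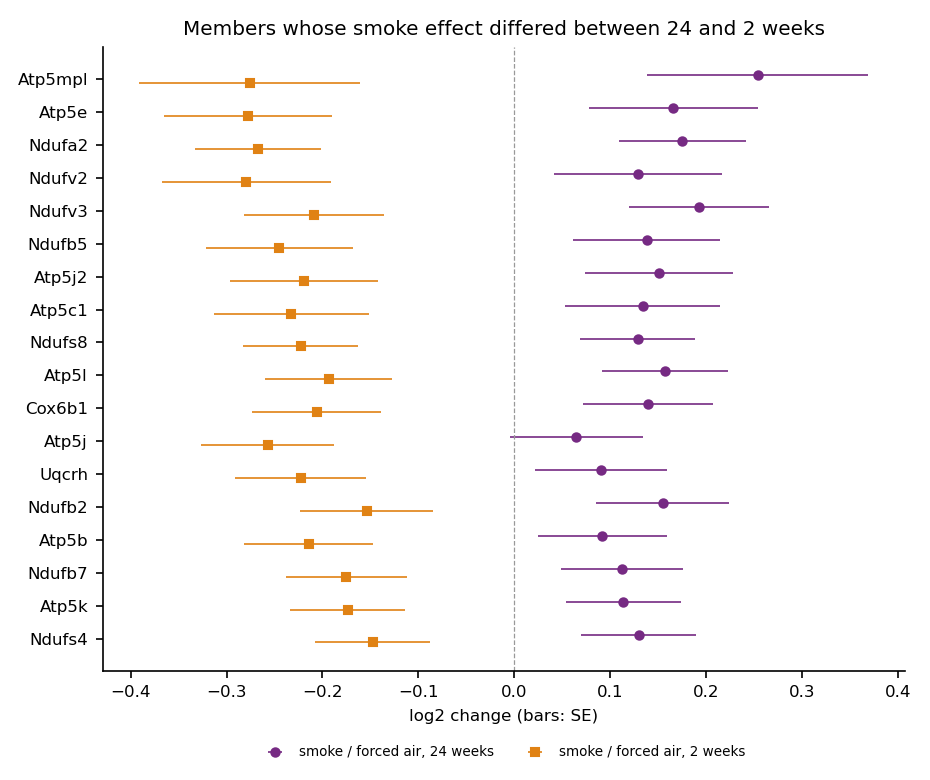
Log2 change with smoke against forced air at 24 weeks (circles) and at 2 weeks (squares) for the 18 members whose smoke effect differed between these times (bars: SE). All 18 lie above 0 at 24 weeks, where none was called, and below 0 at 2 weeks, where 9 were called. They were chosen by this difference.

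The smoke effect at 12 weeks differed from that at 2 weeks in 0 members, beside 1.48% of all genes positive and 0.719% negative, with 4 positive and 0 negative by limma at an unadjusted p under 0.05. The smallest p belonged to Ndufs4 (0.28, adjusted p = 0.066), Ndufaf4 (0.37) and Ndufaf5 (0.26), and with the ratios as covariates 3 members were positive. Between 24 and 12 weeks it also differed in 0 members, beside 0.02% and 0.0266% of all genes, with 19 positive and 0 negative by limma at an unadjusted p under 0.05. Ndufa8 (0.29), Cox7a2l (0.19) and Ndufb5 (0.30) had the smallest p.

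Cessation was compared with forced air and with continued smoke, all at 24 weeks. After smoke to forced air 0 members were called against forced air, beside 1.46% of all genes higher and 0.526% lower. By limma 0 were higher and 1 lower at an unadjusted p under 0.05. Cox7a1 (-0.31, adjusted p = 0.20), Cox8b (-0.27, adjusted p = 0.38) and Ndufa1 (-0.10) had the smallest p. Without forced air replicate 4 and smoke to forced air replicate 6, Cox8b was at 0.034. After smoke to room air 1 member rose and 2 fell against forced air, beside 9.81% and 5.31% of all genes. Ndufv3 rose by 0.23 (adjusted p = 0.023), and Cox8b and Cox7a1 fell by 0.42 and 0.37 (adjusted p = 0.042 and 0.044). Ndufv3 signals were 921, 958 and 1032 after smoke to room air and 773, 810 and 889 with forced air, with no overlap. Without forced air replicate 4 Cox8b was at -0.22 (adjusted p = 0.24), Cox7a1 at -0.28 (adjusted p = 0.15) and Ndufv3 at 0.21 (adjusted p = 0.050). Over 12 fits that each left out 1 array, Cox8b lost its call in 6, Cox7a1 in 9 and Ndufv3 in 4. Neither Cox8b nor Cox7a1 was called without the detection filter or with only the compared groups fitted, and Cox8b was not called with quantile normalization or with the title number as a covariate or block. With the ratios as covariates 2 members were higher and 2 lower.

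Against continued smoke, 1 member rose and 1 fell after smoke to forced air, beside 7.68% and 7.45% of all genes. Cox6b2, the testis isoform of subunit 6b, rose by 0.24 (adjusted p = 0.021), with signals of 169, 214 and 223 after cessation and 143.6, 165.0 and 204.9 with continued smoke. Ndufa1, an accessory subunit needed for complex I assembly, fell by 0.20 (SE 0.06, adjusted p = 0.010). Its signals were 428, 458 and 479 after cessation and 511, 516 and 549 with continued smoke, with no overlap. Ndufa1 kept its call under every alternative tried save a minimum change of 0.3. Cox6b2 lost its call at that minimum change and when only the compared groups were fitted (adjusted p = 0.092). Its call was also lost without the fat-marked and the low cardiac array, and in 6 of 12 fits that each left out 1 array. In the fit with the ratios as covariates 3 members were lower, and without the high-ratio arrays also 3. After smoke to room air 1 member rose and none fell against continued smoke, beside 9.12% and 9.07% of all genes. This was again Cox6b2 (0.22, adjusted p = 0.033), which the shared smoke arrays tie to the first result, and Ndufa1 was at -0.14 (adjusted p = 0.075). Here Cox6b2 lost its call in 5 of 12 such fits and with only the compared groups fitted. With the ratios as covariates 2 members were lower, and without the high-ratio arrays 1 was. Between the cessation groups, smoke to room air against smoke to forced air, 0 members were called, beside 0.459% and 0.512% of all genes. By limma 1 was higher and 1 lower at an unadjusted p under 0.05. Ndufa3 (0.14), Ndufaf4 (-0.19) and Ndufv3 (0.15) had the smallest p.

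Other genes of mitochondrial energy metabolism were counted in the same fits. In forced air for 2 weeks against untreated lungs 11 of 14 citric acid cycle genes rose, among them Suclg2 (0.27), Dlst (0.25) and Idh3a (0.24), and 2 of 4 complex II subunits, Sdhc (0.38) and Sdhb (0.19). Of 76 mitochondrial ribosomal protein genes 32 rose and 1 fell, with Mrpl12 at 0.44, beside the 10.9% and 12.4% of all genes. Of 6 carriers and channels 4 rose, among them Vdac2 (0.39). Of 33 assembly factors outside the name rule 9 rose and 2 fell, with Cox16 at 0.40 and Atpaf1 at -0.41. Of 13 regulators of mitochondrial biogenesis 3 fell, none rose and the median was -0.0036. The 3 were the coactivator Ppargc1a (-0.47), Gabpa (-0.43) and the mitochondrial RNA polymerase Polrmt (-0.32). Ucp3, an uncoupling protein, fell by 0.20.

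In forced air for 24 weeks against untreated lungs 17 of the 76 ribosomal protein genes fell and none rose, beside 9.4% of all genes lower, and the ATP synthase inhibitor Atpif1 fell by 0.26. With smoke for 2 weeks 6 of 76 ribosomal protein genes fell, beside 3.7% of all genes, and Gabpa rose by 0.32. At 12 weeks of smoke 2 of 76 ribosomal protein genes rose and 3 fell, smaller shares than the 12.5% and 10.5% of all genes, and Suclg2 and Sdha fell by 0.31 and 0.13. At 24 weeks of smoke 9 of 76 ribosomal protein genes rose and 1 fell, where 11.1% and 6.67% of all genes did, so the share that rose was near that of all genes. Atpif1 rose by 0.22 and Ppargc1a fell by 0.39. The smoke effect at 24 weeks differed from that at 2 weeks in 12 of 76 ribosomal protein genes, all positive, beside 3.87% of all genes positive, and in Ppargc1a (-0.57), Gabpa (-0.47) and Vdac2 (0.49).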

How the data were processed

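RNA of 53 lung samples was measured on 53 oligonucleotide arrays, 1 for each sample, as 45101 probe sets. MAS5 gave the signal intensity that the authors deposited for each probe set (per the submitters' processing notes), on a linear scale with a 2% trimmed mean of 150 on every array. A MAS5 detection p-value was deposited beside each signal, and the program's version is not given in the sources used here. MAS5 scaling makes levels relative to the rest of each array, and the number of arrays limits the precision.

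Probe sets were kept (35615) if present, at a detection p below 0.05, on 50% or more of the arrays in any group, and each gene with 1 symbol was read from its brightest kept probe set. A further 8 symbols of the rule occur only on probe sets shared with other symbols and were not used. Of the 86 members 46 have several kept probe sets. Log2 of the signal plus 16 was fitted with limma 3.58.1 in R 4.3.3 on all 53 arrays (1 mean per group, eBayes with trend, tested on simulated data), with two-sided p-values adjusted after Benjamini-Hochberg over 15030 genes. There were 11 comparisons of groups and 3 differences between smoke effects. Permutation tests used scipy 1.17.1, and figures matplotlib 3.10.9.

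Named genes are the up to 6 called members with the largest rise and the 6 with the largest fall in a comparison, the 3 of smallest p where under 3 were called, and a panel of 23 members for the smoke comparisons and forced air for 2 weeks. In the other lists up to 3 called genes are named. The members and lists were chosen with earlier results of these data known. Promoters were matched by gene to RefSeq. Alternatives were a pseudocount of 1, quantile normalization, no filter on detection, all kept probe sets, only the compared groups, a minimum change of 0.3, the number in the sample titles as a covariate or in 3 ranges as a block, the 3′/5′ ratios as covariates and leaving out single arrays. Chosen after seeing the data were leaving out the 8 arrays with the highest Gapdh ratios, and leaving out the array with fat markers together with the one low in cardiac markers.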

Additional observations from a re-analysis of the deposited data

Results flagged for a closer look

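In 37 of 252 groups of values examined, 1 array lay far from the other arrays of its group. Chance gives about 1 in 20 for a single group of normally distributed values. The groups of values share arrays, and the medians by complex are made of members, so the 37 cannot be set against that rate. Untreated replicate 2 was the highest array of its group for 11 members, with signals of 1298 for Atp5e, 965 for Atp5mpl, 1323 for Cox4i1, 1791 for Cox6b1, 833 for Ndufa2, 1483 for Ndufa5, 908 for Ndufv1, 765 for Ndufv2, 1260 for Ndufv3, 905 for Uqcrc2 and 1614 for Uqcrh. Forced air at 12 weeks replicate 1 was the highest array of its group for 5 members, with signals of 1647 for Atp5b, 1727 for Atp5j, 1290 for Atp5mpl, 1973 for Cox6b1 and 2088 for Uqcrh. Smoke to room air replicate 6 was the highest array of its group for 3 members, with signals of 57.6 for Ndufa4l2, 536 for Ndufv1 and 1425 for Uqcrh. Single signals far from the rest were 176 for Cox4i2 in forced air at 12 weeks replicate 2 (highest), 97.2 for Cox8b in forced air at 24 weeks replicate 4 (highest), 868 for Atp5j in forced air at 24 weeks replicate 4 (lowest), 794 for Ndufv2 in forced air at 2 weeks replicate 4 (highest), 2112 for Cox6b1 in forced air at 2 weeks replicate 6 (highest), 1026 for Atp5b in smoke at 12 weeks replicate 2 (lowest), 49.5 for Ndufa4l2 in smoke at 2 weeks replicate 1 (highest), 761 for Ndufa5 in smoke to forced air replicate 4 (highest) and 943 for Cox4i1 in smoke to forced air replicate 6 (lowest). By complex, the highest array of forced air at 2 weeks stood apart in its median log2 level relative to the untreated mean, at 0.33 for complex I, 0.39 for complex III and 0.24 for complex IV. By complex, the highest array of smoke to room air stood apart in its median log2 level relative to the untreated mean, at -0.016 for complex I. By complex, the highest array of the untreated group stood apart in its median log2 level relative to the untreated mean, at 0.27 for complex I, 0.12 for complex III, 0.17 for complex IV and 0.20 for complex V. By complex, the lowest array of smoke at 2 weeks stood apart in its median log2 level relative to the untreated mean, at -0.032 for complex III. Untreated replicate 2 had a Gapdh 3′/5′ ratio of 1.97 and forced air at 12 weeks replicate 1 had 2.42. Their part in these values was not tested. In 18 members the smoke effect at 24 weeks differed from that at 2 weeks by the test of the difference itself. The differences in log2 change, 24 minus 2 weeks, were 0.31 for Atp5b, 0.37 for Atp5c1, 0.44 for Atp5e, 0.32 for Atp5j, 0.37 for Atp5j2, 0.29 for Atp5k, 0.35 for Atp5l, 0.53 for Atp5mpl, 0.35 for Cox6b1, 0.44 for Ndufa2, 0.31 for Ndufb2, 0.38 for Ndufb5, 0.29 for Ndufb7, 0.28 for Ndufs4, 0.35 for Ndufs8, 0.41 for Ndufv2, 0.40 for Ndufv3 and 0.31 for Uqcrh. In each the change was positive at 24 weeks and negative at 2 weeks. None of the 18 was called at 24 weeks, and 9 were called lower at 2 weeks. The 18 were chosen by the positive difference, so their opposite signs are no separate result. The median Gapdh ratio was 1.51 with smoke and 1.505 with forced air at 24 weeks, and 1.62 with smoke and 1.85 with forced air at 2 weeks.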

How the results depend on the processing

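No paired analysis was possible because the replicate numbers only follow the order of the samples and pair none of them. The direction of the median change held under every alternative for both smoke at 2 weeks and forced air for 2 weeks against untreated lungs, while the counts of called members moved when the 3′/5′ ratios were fitted or arrays of high ratio were left out. Counts of called members that moved by over 1.5 times or to or away from 0 are given here, with untreated lungs as the comparison for forced air and forced air for smoke. Apart from the alternatives whose construction changes the genes or samples used, the cause was not tested. With quantile normalization the members called were 11 lower in smoke at 2 weeks, 3 higher in smoke at 24 weeks, 1 lower in smoke to room air against forced air, 1 lower in smoke to room air against continued smoke, 0 lower in forced air for 2 weeks and 1 higher in the smoke effect at 12 against 2 weeks. With the title number as a covariate the members called were 7 lower in smoke at 2 weeks, 1 lower in smoke to room air against forced air and 4 higher in the smoke effect at 24 against 2 weeks. With both 3′/5′ ratios as covariates the members called were 1 lower in smoke at 2 weeks, 6 higher and 2 lower in smoke at 12 weeks, 8 higher in smoke at 24 weeks, 2 higher in smoke to room air against forced air, 3 lower in smoke to forced air against continued smoke, 2 lower in smoke to room air against continued smoke, 21 higher in forced air for 2 weeks, 1 higher in forced air for 12 weeks, 11 lower in forced air for 24 weeks, 3 higher in the smoke effect at 12 against 2 weeks and 1 higher in the smoke effect at 24 against 2 weeks. Without the arrays of high 3′/5′ ratio the members called were 2 lower in smoke at 2 weeks, 1 higher and 2 lower in smoke at 12 weeks, 5 higher in smoke at 24 weeks, 3 lower in smoke to forced air against continued smoke, 1 lower in smoke to room air against continued smoke, 27 higher and 0 lower in forced air for 2 weeks, 0 higher in forced air for 12 weeks, 9 lower in forced air for 24 weeks and 4 higher in the smoke effect at 24 against 2 weeks. With a log2 change of at least 0.3 required the members called were 3 lower in smoke at 2 weeks, 4 lower in smoke at 12 weeks, 0 higher in smoke to room air against forced air, 0 higher and 0 lower in smoke to forced air against continued smoke, 0 higher in smoke to room air against continued smoke, 21 higher in forced air for 2 weeks, 0 higher in forced air for 12 weeks and 3 lower in forced air for 24 weeks. With 3 ranges of the title numbers as a block the members called were 12 lower in smoke at 12 weeks, 1 higher in smoke at 24 weeks, 2 higher and 1 lower in smoke to room air against forced air, 2 higher and 3 lower in smoke to forced air against continued smoke, 2 higher and 2 lower in smoke to room air against continued smoke, 1 higher in the smoke effect at 12 against 2 weeks and 7 higher in the smoke effect at 24 against 2 weeks. With the other groups left out of the fit the members called were 2 higher and 1 lower in smoke at 24 weeks, 0 lower in smoke to room air against forced air, 0 higher in smoke to forced air against continued smoke, 0 higher in smoke to room air against continued smoke, 0 higher in forced air for 12 weeks and 6 lower in forced air for 24 weeks. Without the fat-marked and the low cardiac array the members called were 1 higher in smoke at 24 weeks, 0 higher and 0 lower in smoke to room air against forced air and 10 higher in the smoke effect at 24 against 2 weeks. Over all kept probe sets the members called were 2 higher and 4 lower in smoke at 24 weeks, 3 higher in smoke to room air against forced air, 2 higher and 3 lower in smoke to forced air against continued smoke, 3 higher and 1 lower in smoke to room air against continued smoke and 2 lower in forced air for 2 weeks. With no detection filter the members called were 0 lower in smoke to room air against forced air. Leaving out 1 array at a time gave 2 to 23 lower in smoke at 2 weeks, 4 to 12 lower in smoke at 12 weeks, 0 to 4 higher in smoke at 24 weeks, 1 to 3 lower in smoke at 24 weeks, 0 to 1 higher in smoke to room air against forced air, 0 to 2 lower in smoke to room air against forced air, 0 to 1 higher in smoke to forced air against continued smoke, 1 to 3 lower in smoke to forced air against continued smoke, 0 to 1 higher in smoke to room air against continued smoke, 0 to 1 lower in smoke to room air against continued smoke, 1 to 10 higher in forced air for 12 weeks, 3 to 25 lower in forced air for 24 weeks, 0 to 1 higher in the smoke effect at 12 against 2 weeks and 3 to 29 higher in the smoke effect at 24 against 2 weeks. The values that changed sign were all of genes that are not called, and most lie near 0. With both 3′/5′ ratios as covariates the log2 change was 0.027 for Ndufb8 and -0.017 for Uqcrfs1 in smoke at 2 weeks and 0.030 for Ndufs1, 0.068 for Ndufv1, 0.11 for Ndufb8, 0.042 for Cox4i1, 0.16 for Cox6a1, 0.095 for Cox7a2, 0.15 for Cox8a, 0.030 for Atp5a1, 0.11 for Atp5b and 0.026 for Atp5g3 in smoke at 12 weeks. With 3 ranges of the title numbers as a block the log2 change was 0.0013 for Uqcrc1 and -0.0057 for Uqcrfs1 in smoke at 2 weeks, -0.017 for Uqcrc2 in smoke at 12 weeks and -0.0057 for Uqcrc1 and -0.0023 for Atp5a1 in smoke at 24 weeks. With the title number as a covariate the log2 change was -0.0098 for Uqcrfs1 in smoke at 2 weeks. With quantile normalization the log2 change was 0.013 for Cox4i1 in smoke at 2 weeks and 0.055 for Cox4i1, 0.019 for Cox6a1, 0.014 for Atp5b and 0.015 for Atp5g3 in smoke at 12 weeks. Without the arrays of high 3′/5′ ratio the log2 change was 0.012 for Ndufs1, 0.049 for Ndufb8, -0.0062 for Uqcrc1, 0.027 for Cox6a1, 0.058 for Cox8a and 0.027 for Atp5b in smoke at 12 weeks. Without the fat-marked and the low cardiac array the log2 change was 0.034 for Cox8b in smoke to forced air against forced air. Leaving out 1 array at a time, the log2 change in smoke at 2 weeks ran over -0.076 to 0.014 for Uqcrc1 and -0.026 to 0.034 for Uqcrfs1. Leaving out 1 array at a time, the log2 change in smoke at 12 weeks ran over -0.033 to 0.023 for Ndufs1, -0.073 to 0.046 for Ndufaf1, -0.025 to 0.032 for Uqcrc2, -0.036 to 0.011 for Cox4i1, -0.022 to 0.059 for Cox5a, -0.083 to 0.023 for Atp5b and -0.013 to 0.065 for Atp5g1. Leaving out 1 array at a time, the log2 change in smoke at 24 weeks ran over -0.011 to 0.067 for Uqcrfs1, -0.015 to 0.12 for Cox7a2, -0.049 to 0.034 for Atp5a1 and -0.033 to 0.059 for Atp5g3. Of the 59 called values of named members, 1 lost its call with a pseudocount of 1, 13 with quantile normalization, 35 with the ratios as covariates and 36 without the arrays of high ratio. None of them changed sign under any alternative tried. Signals near background limit what can be said of Cox7b2, Cox8c and Ndufb4.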
